A study of Mus musculus with 8 samples.

Results

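The RNA of wild type mouse testis was described here from 2 of the 8 samples of a study of Ku86 and telomerase loss, the 2 titled as wild type for both genes, Ku86(+/+);Terc(+/+). Each sample was total RNA on 1 Affymetrix MG_U74Av2 array, and the other 6 samples, all of them knockouts, were not used. Of 12488 probe sets on the array, 66 were controls, and 10833 of the others had exactly 1 gene symbol. These stood for 8251 genes, and each gene was placed by its brightest probe set, ranked by the mean signal of both arrays. The labels give no age, strain or treatment for the mice and mention no transgene or Cre. The scanner records name a different animal for each array and call the material germ cells, where the labels say testis. No other group enters, so the values below are a description, without tests, with the SD over n = 2 arrays.

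The seminiferous tubules of the adult testis hold germ cells at every step from spermatogonial stem cells through meiotic spermatocytes to haploid spermatids, supported by Sertoli cells, with Leydig cells between the tubules. In spermatids the histones are replaced first by transition proteins and then by protamines, which pack the sperm nucleus. The messages for these proteins are made in round spermatids and stored for later translation. Germ cells also switch to their own isoforms of many enzymes and structural proteins, among them the lactate dehydrogenase Ldhc and the phosphoglycerate kinase Pgk2. Signal is in arbitrary units on a linear scale, and probe sets differ in how strongly they bind their targets, so the order is one of signal and only loosely one of transcript number. In whole tissue, few cells of a type and little RNA per cell cannot be told apart. The labels say testis and the scanner records germ cells, so signals of somatic cell genes carry this limit too.

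Of the 5 marker genes given for this tissue, 4 were in the top 10% of genes and 1 was not. Prm1, a protamine of the sperm nucleus, read 15151.5 and 17232 on replicates 1 and 2, a mean of 16192 ± 1471 and rank 2. Ldhc read 12308 and 12301 (rank 6), Tnp1, a transition protein, 5956 and 9718 (rank 27), and Pgk2 2238 and 2946 (rank 204). The arrays were nearly equal for Ldhc, whereas replicate 2 was the higher for Tnp1, which ranked 53 on replicate 1 alone and 17 on replicate 2 alone. Prm2, the other protamine, had 2 probe sets and was low on both. The brighter read 85.5 and 45.6, a mean of 65.5 ± 28.2 at rank 4494, under the median gene at 82.3, and the dimmer read 1.1 and 1.4.

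Tnp2, Prm3, Prm2 and Prm1 follow one another on chromosome 16 in the gene table. Tnp2, Prm3 and Prm1 ranked 1, 21 and 2, whereas Prm2 was near the middle of the ranking, at rank 4494. The 150 bases before the annotated start of each of these genes are shown, with those of Tnp1, Ldhc and Znrf4, a RING-finger protein of haploid germ cells. Whether these sequences bear on the signals was not tested. They come from RefSeq (GRCm38.p6), 5′ to 3′ on the gene's own strand. They lie on the minus strand at chr16:10788656-10788805 for Tnp2, chr16:10790915-10791064 for Prm3, chr16:10792106-10792255 for Prm2, chr16:10796824-10796973 for Prm1, chr1:73015900-73016049 for Tnp1 and chr17:56512484-56512633 for Znrf4, and on the plus strand at chr7:46861113-46861262 for Ldhc. Capitals mark the letters of 6 motifs searched on both strands: TGACGTCA, the full cAMP response element, its parts TGACGT and TGACG, the TATA box TATAAA, the GC box GGGCGG and CCAAT.
Tnp2: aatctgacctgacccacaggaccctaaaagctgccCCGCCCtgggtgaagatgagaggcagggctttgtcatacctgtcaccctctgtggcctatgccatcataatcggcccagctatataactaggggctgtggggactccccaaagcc
Prm3: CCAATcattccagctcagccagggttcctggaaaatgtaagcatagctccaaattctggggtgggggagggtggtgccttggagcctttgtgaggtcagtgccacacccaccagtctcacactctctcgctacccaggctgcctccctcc
Prm2: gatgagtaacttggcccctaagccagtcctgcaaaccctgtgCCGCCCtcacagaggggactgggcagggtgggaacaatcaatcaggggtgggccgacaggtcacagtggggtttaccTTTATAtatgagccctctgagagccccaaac
Prm1: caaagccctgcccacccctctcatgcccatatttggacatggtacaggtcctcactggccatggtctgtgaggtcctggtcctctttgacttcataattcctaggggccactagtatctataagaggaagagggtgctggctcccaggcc
Tnp1: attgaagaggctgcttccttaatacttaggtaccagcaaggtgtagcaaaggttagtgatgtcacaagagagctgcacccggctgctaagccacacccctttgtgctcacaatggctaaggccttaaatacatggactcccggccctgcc
Ldhc: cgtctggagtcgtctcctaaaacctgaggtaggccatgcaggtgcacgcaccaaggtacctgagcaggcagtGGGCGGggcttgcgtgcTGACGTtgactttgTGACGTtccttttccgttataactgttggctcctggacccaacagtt
Znrf4: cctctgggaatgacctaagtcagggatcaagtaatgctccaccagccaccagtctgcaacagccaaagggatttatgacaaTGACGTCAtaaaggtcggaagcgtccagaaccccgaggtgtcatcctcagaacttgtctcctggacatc
In these windows Ldhc had TGACGT at 61 and at 47 bases before the start, with GGGCGG at 78, and Znrf4 had the full TGACGTCA at 69. Prm2 had GGGCGG at 108 and TATAAA at 31 bases before the start, and Tnp2 had GGGCGG at 115, all on the other strand. Prm3 had CCAAT at 150, and the windows of Prm1 and Tnp1 held none of the 6 motifs. The windows of Pgk2, Gapdhs, Smcp, Gsg1, Phf7 and Tcp11 were searched too but are not shown. None of these held the full cAMP response element or either of its parts. Among all the windows searched, only those of Ldhc and Znrf4, both shown, held any of these. The windows shown are therefore no measure of how common such matches are among high genes. A match is only a match of letters in the window before the annotated start.

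Signal was concentrated in few genes. The median gene read 82.3, the gene at the 75th percentile 264, that at the 90th 789 and that at the 99th 4410, with a highest of 17685 and a lowest of 0.300. The 100 brightest of the ranked probe sets held 21.8% of the summed signal and the 500 brightest held 50%. By comparison, 19 control probe sets for bacterial and yeast transcripts read 1.30 to 28.7, with a median of 6.70. The edge of the top 10%, 826 genes, fell in a smooth stretch of the curve. Vps26a, at 789 ± 64.4, was the last gene inside, and Nudt16l1, at 789 ± 186, the first outside.

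**Figure D1:**
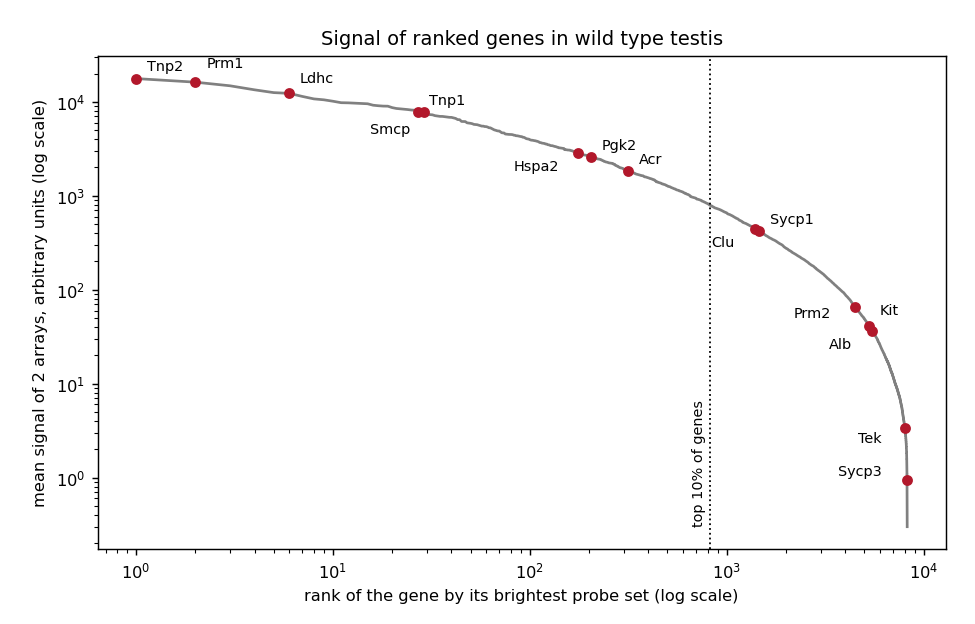
Mean signal of both wild type arrays (arbitrary units, log scale) against the rank of each of 8251 genes (log scale), with 15 genes as red points and a dotted line at the edge of the top 10%. Tnp2, Prm1 and Ldhc stand at the left end, Prm2 at rank 4494 beside genes of other cell types, and Sycp3 near the bottom.

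Of the 10 highest genes, 6 were on lists for late germ cells, 2 on lists of general machinery, 1 of these on both, and 3 on no list. The lists for late germ cells hold 9 to 28 of the 8251 ranked genes each, and those of general machinery 25 to 53. The highest gene was Tnp2, a transition protein, at 17028.5 and 18342, and it led on both arrays. Prm1 came next, followed by the ribosomal protein gene Rpl41 (13752 and 15880.1), the glutathione S-transferase gene Gstm5 (12657 and 14179.9) and Gsg1, a germ cell-associated gene (11818 and 13251). After Ldhc came the dynein light chain Dynll1 (11155 and 11657), the sperm glyceraldehyde-3-phosphate dehydrogenase Gapdhs (10666 and 10827), the PHD-finger gene Phf7 (9421 and 11588) and the Y-box RNA-binding protein gene Ybx1 (9544 and 10750.1). None of these 10 genes read under 9421 on either array, and 8 of the 10 were also among the 10 highest of both arrays ranked singly.

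Ranks 11 to 40 mixed sperm genes with housekeeping genes. Tcp11, a sperm protein of the t-complex, read 10118 and 9461 and Znrf4 10877 and 8624.5. Fabp9, a lipid-binding protein of the perforatorium, read 8054 and 9961.5, Oaz3, the germ cell antizyme that restrains polyamine synthesis, 8091 and 9260.5, and Prm3, an acidic protamine-like protein, 8721 and 8273. Odf1 and Smcp of the sperm tail, Dnajb3, a spermatid DnaJ chaperone, the cytochrome oxidase subunit Cox6b2, Ybx2, a store protein for spermatid messages, and Crisp2 lay between 8142 ± 768 (Odf1) and 6841 ± 1224 (Crisp2). Among genes of general function were the nuclear transport GTPase Ran (9669 ± 624), Rps24 (9582 ± 1092), Rps28 (9535 ± 514), Rplp0 (8989 ± 81.5), histone H3 gene H3c14 (9203 ± 656) and the sodium pump subunit Atp1b3 (9086 ± 983). Thymosin Tmsb10 (8426 ± 1053), the kinase Csnk1g2 (8361 ± 683), the chaperone Hsp90aa1 (8273 ± 2272), gamma actin Actg1 (8183 ± 359) and the gluconeogenic enzyme Fbp1 (7834 ± 75.4) followed. Elob, Tpt1, Pabpc1, Ldha, Reep6, Acyp1 and Egln2 made up the rest, from 7392 ± 271 for Elob down to 6831 ± 1320 for Egln2. Of the 39 pairs of neighbours in this order of 40 genes, 37 had overlapping ranges over the arrays, so the order within it is loose. Ldhc stood clear of Dynll1 on both arrays, and Dynll1 stood clear of Gapdhs. Of the 40 genes, 16 were on the lists for late germ cells described below, 9 on lists of general cell machinery, 2 on both, 0 on a list for somatic cells and 17 on no list.

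**Figure D2:**
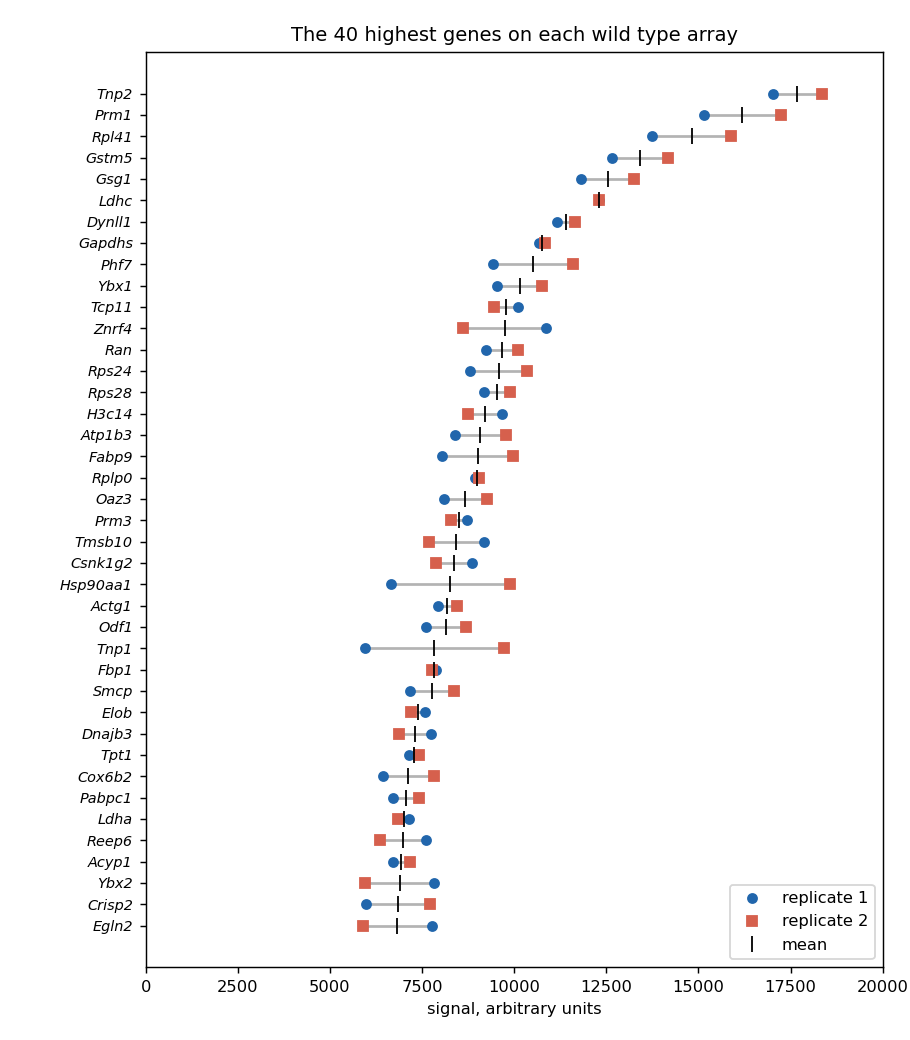
Signal of the 40 highest genes (horizontal axis, arbitrary units from 0), 1 gene a row in rank order; circles are replicate 1, squares replicate 2, ticks the mean. The widest gaps between arrays are those of Tnp1 (5956 and 9718) and Hsp90aa1 (6666 and 9880), and most neighbouring rows overlap.

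Lists of genes by role were placed on the same ranking, in which 10% of all genes are in the top 10% by construction and the median gene reads 82.3. The lists were chosen with earlier results of these data known. How far that choice raises the list counts given above and below was not tested. For spermatid chromatin, 9 of 13 genes had a ranked probe set and 6 of these 9 were in the top 10%, with a median of 4926. Beside Tnp2, Prm1, Prm3 and Tnp1 these were Hils1, a linker histone of spermatids, at 5170.5 and 4682, and the histone variant H2ax, known for the sex body of spermatocytes, at 1679.8 and 1056. The other 3 were Prm2, the testis histones H2bc1 (141 and 167) and H1f6 (37.2 and 61.3). H1f6, the linker histone of spermatocytes, and Prm2 were under the median gene.

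Sperm tail genes were in the top 10% in 16 of 21 ranked cases, from a list of 41, with a median of 2311 and no member under the median gene. Odf1, a main protein of the outer dense fibres, read 7599.5 and 8685, and Odf2, another of these fibres, 5362 and 5806. Smcp, which lies in the mitochondrial capsule of the midpiece, read 7168 and 8356, and Gpx4, the peroxidase that hardens this capsule, 4679.8 and 3709.8. Akap4, the main protein of the fibrous sheath, read 3515 and 4286. Akap1, an anchor of protein kinase A on mitochondria, read 6751 and 6558 and Ropn1l, a fibrous sheath partner of such anchors, 5966 and 5061.5. Among genes of the axoneme and its transport, the radial spoke gene Rsph1 had a mean of 4033 ± 801, the tektins Tekt2 and Tekt1 1218 ± 198 and 958 ± 123, and the intraflagellar transport gene Ift88 1224 ± 67.5. Dynll1, whose light chain also serves motors in other cells, led the list. The lowest were Septin4 of the annulus (430 ± 24.1), Ift81 (386 ± 2.83) and the tubulin Tubb4b (135 ± 12.7).

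Genes of the acrosome, the vesicle that opens at fertilisation, and of egg binding had 15 of 21 ranked members in the top 10%, with a median of 1751. After Fabp9 and Crisp2 came Actl7b, an actin-like protein of the spermatid head (5305 and 4012), and Adam3, a membrane protein needed for binding the egg coat (3446 and 5265). The serine protease Prss39 read 3746 and 3042 and Adam5 3098 and 3543.5. Acr, the acrosomal protease acrosin, read 1869.5 and 1820.4, and Clgn, the spermatid chaperone that folds fertilin, 1704 and 1797. At the low end were Ace (444 and 387), the egg-coat binding protein Zan (189 and 177) and Prss40 (98.3 and 125), all 3 over the median gene.

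A list of germ cell energy enzymes had 13 of 18 ranked members in the top 10%, with a median of 2609. It mixes forms made by germ cells alone with enzymes of all cells, such as Tpi1, Aldoa and Hk1, and holds the glutathione S-transferases Gstm5, its highest member, and Gstm6. Glycolysis was covered at many steps. The glucose transporter Slc2a3 read 4065 and 3647, aldolase Aldoa 3268 and 2524, triose phosphate isomerase Tpi1 4122.5 and 3983 and the mutase Pgam2 5811 and 4767. Gapdhs, Pgk2 and Ldhc, already given, are germ cell forms of their steps. Pdha2, the germ cell form of pyruvate dehydrogenase, read 2549 and 2702, and Cyct, the testis cytochrome c, 466 and 657. Gstm6, Glud1 and Adh1 were under the median gene, at 66.2 ± 8.70, 28.8 ± 4.67 and 17.6 ± 3.89.

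For several of these genes the array also carried the form used by other cells, on another probe set. The signals stand side by side here as values, because different probe sets do not share a scale. The mean was 12305 ± 4.60 for Ldhc, 6998 ± 196 for Ldha and 82.9 ± 32.0 for Ldhb, the form of heart. Pgk2 had 2592 ± 501 and Pgk1 102 ± 31.7, and Pdha2 had 2625 ± 108 and Pdha1 12.5 ± 8.91. Cyct had 562 ± 135 and Cycs 34.6 ± 2.62. Hspa2, the heat shock protein of spermatocytes, had 2866 ± 625 and its constitutive relative Hspa8 123 ± 37.3. For Ccna1, the meiotic cyclin, and Ccna2 the means were 1285 ± 222 and 151 ± 2.33, and for Clgn and Canx 1751 ± 65.8 and 248 ± 37.4. The capping protein genes had 2362 ± 199 for the germ cell gene Capza3 and 1970 ± 436 for Capza1. Gapdh, Calr3, Gk2 and Gk had no ranked probe set.

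Meiotic genes were in the top 10% in 12 of 21 ranked cases, with a median of 1285 but a wide spread. The highest, Pabpc1 (6701 and 7416), Ybx2 (7825 and 5961) and Ybx3 (5150.2 and 4200.3), bind and store messages and are on the spermatid list too. Hspa2 read 2424 and 3307.5 and Meig1, which is also on the tail list, 1601.5 and 3021. Of the chromosome axis, Syce2 read 1651 and 1536 and the cohesin Stag3 911 and 998, while Sycp1, the transverse filament protein, read 316 and 531. Sycp3, the axial element protein and a standard mark of spermatocytes, was near the bottom of all genes at 0.7 and 1.2 (rank 8240). The recombinase Dmc1 read 15.1 and 63.5, the meiotic gene Msh5 60.9 and 9.7 and the transcription factor Mybl1 17.2 and 49.2. All 3 had means under the median gene, with the arrays far apart.

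Regulators of the spermatid phase were in the top 10% in 12 of 28 ranked cases, with a median of 499. Besides the message-binding proteins, the spermatid kinases Tssk2 (5736 and 4230.3) and Tssk1 (2662 and 2241), the kinase Tesk1 (5297 and 3099) and the poly(A)-binding protein Pabpc2 (4007 and 4612) stood high. Rfx2, a transcription factor of the spermatid program, read 2492 and 1845 and Tbpl1, a relative of the TATA-binding protein needed by spermatids, 1587 and 1764. Crem, the transcription factor that switches on many spermatid genes through cAMP response elements, read only 85.4 and 111 at rank 3811. At the low end stood Camk4 (10.1 and 14.2), Eif4e (19.9 and 43.9) and Kifc1 (45.3 and 51.0).

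**Figure D3:**
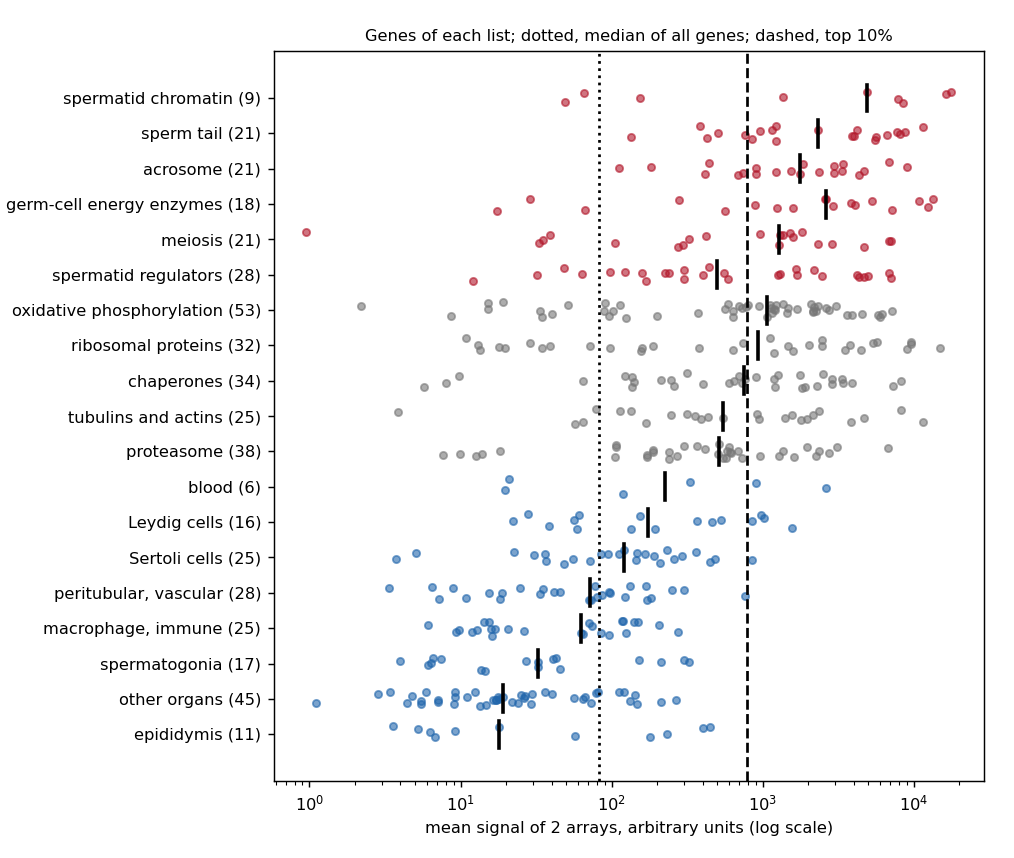
Mean signal of both arrays (log scale, arbitrary units) for each ranked gene of 19 lists, 1 row a list with the number of genes; bars are list medians. Red lists are of meiotic and haploid germ cells, grey of general machinery, blue of spermatogonia, somatic cells and other tissues. Medians run from 4926 for spermatid chromatin to 18.1 for the epididymis, against 82.3 for all genes (dotted) and 789 at the edge of the top 10% (dashed).

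Lists of general machinery, which hold some germ cell forms, also had many members in the top 10%, with a wide spread. Subunits of oxidative phosphorylation were in the top 10% in 29 of 53 ranked cases, with a median of 1069. They were led by the germ cell form Cox6b2 (7125 ± 982), Ndufb5 (6165 ± 364), Cox7a2 (5945 ± 412), Uqcrq (5751 ± 15.2) and Cox6c (4545 ± 139). Cox7a1, the muscle form of its subunit, was lowest at 2.5 and 1.9. Of 79 cytosolic ribosomal protein genes only 32 were ranked, the others having no probe set with 1 symbol, and 16 of the 32 were in the top 10%. Their signals ran from 14816 ± 1505 for Rpl41 to 10.8 ± 1.27 for Rps14. Chaperones were in the top 10% in 16 of 34 cases, led by Hsp90aa1 and the spermatid gene Dnajb3, and the germ cell members Hspa2, Clgn and Hspa1l (3671 and 4138) were among them. Tubulins, actins and their partners had 12 of 25 members there, among them the germ cell genes Actl7b and Capza3, and proteasome subunits 10 of 38, led by Psma6 (6024 and 7459.6). Of the immune proteasome subunits, Psmb8 read 3.6 and 24.0 and Psmb9 5.6 and 9.6, under the median gene, and Psmb10 read 203 and 174, over it.

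Spermatogonial genes were low. None of 17 ranked members was in the top 10%, 13 were under the median gene, and the median was 32.4. The highest were Dazl (272 and 379), which later germ cells use too, and Uchl1 (358 and 241). Kit, the receptor of differentiating spermatogonia, read 35.6 and 46.8, the stem cell genes Gfra1 2.7 and 26.2 and Ret 3.6 and 4.3, and Stra8, the retinoic acid target that opens meiosis, 9.5 and 3.3. The means of Gfra1, Ret and Stra8 lay within the range of the control probe sets for foreign transcripts.

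Genes of Sertoli cells ranged widely about the median gene. Of 25 ranked Sertoli cell genes 1 was in the top 10%, Ptgds, a prostaglandin synthase also listed for Leydig cells, at 728 and 978. The median was 120, and 9 were under the median gene. Clu, the secreted clusterin, read 494 and 397, Aard 519.6 and 442.5, the receptor Fshr 202 and 316, the factor Wt1 64.6 and 45.7 and vimentin, Vim, 26.1 and 35.5. The lowest were Kitl (20.6 and 24.6), Inhbb (4.8 and 5.4) and the junction protein Ocln (3.9 and 3.6). Summed over the list, the signal was 4226 and 4786 on replicates 1 and 2. Leydig cell genes had 4 of 16 members in the top 10%, with a median of 174 and sums of 6587 and 6420. These were Fdx1, the electron donor of steroid synthesis (1604 and 1502), Nr5a1, its transcription factor (1165 and 881), Scarb1, a cholesterol receptor (1181 and 761), and Ptgds. The placings of Fdx1, Nr5a1 and Ptgds rest on 1 probe set each: the other of Fdx1 had a mean of 11.6, the other 4 of Nr5a1 had 199, 133, 35.5 and 3.20, and the other 2 of Ptgds had 257 and 247. The defining steps were lower. Cyp17a1 read 477 and 576, Cyp11a1 143 and 166, the cholesterol carrier Star 46.7 and 65.7 and the hormone Insl3 66.8 and 51.7.

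Genes of the tubule wall, vessels and matrix had 0 of 28 members in the top 10%, with a median of 72.0 and sums of 2870 and 3011. Col1a2, a collagen, was highest at 732 and 791, just under that edge, whereas smooth muscle actin Acta2 read 81.1 and 91.1 and smooth muscle myosin Myh11 4.6 and 9.8. The placing of Col1a2 rests on 1 probe set, as its other had a mean of 13.3. Macrophage and immune genes had 0 of 25 there, with a median of 62.5 and sums of 1771 and 1753. Cd14 led at 299.9 and 251, and the macrophage marker Adgre1 read 11.2 and 17.5. Of 6 ranked blood genes 2 were in the top 10%, both for haemoglobin. Hba-a1 read 3010.3 and 2205, at rank 202, and Hbb-b2 1088 and 716, both higher on replicate 1, while the red cell membrane genes Slc4a1 and Epb42 read 20.8 ± 4.67 and 19.6 ± 9.12.

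Genes known for the epididymis and for other organs were mostly, but not all, under the median gene. The epididymal list had 0 of 11 in the top 10% and a median of 18.1, and its highest members, Clu and Npc2 (391 and 418), are expressed in many tissues. Of its more specific members, Lcn5 read 4.5 and 6.0 and Adam7 4.5 and 31.6. Of 45 ranked genes of liver, muscle, brain, pituitary, pancreas, skin, lung, kidney and eye, 0 were in the top 10%. Of the 45, 38 were under the median gene and 24 were among the lowest 25% of genes. Their median was 19.1, and albumin, Alb, read 27.3 and 45.2. The highest of them was Pomc, the precursor of pituitary hormones, at 334 and 202, followed by growth hormone, Gh, at 177 and 247, and both were over the medians of the Sertoli and Leydig lists. Of the genes targeted in the other samples of the study, Xrcc5, which encodes Ku86, read 46.3 and 75.6 in wild type on its brighter probe set. The dimmer one of Xrcc5 read 1.0 and 0.4, and Terc had no ranked probe set. Their partners, which were not targeted, read 73.5 and 128 for Xrcc6 and 91.7 and 96.8 for Tert, the telomerase protein gene.

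Probe sets of 1 gene often differed widely in signal. For 2073 genes with 2 or more ranked probe sets the brightest exceeded the dimmest by a median of 4.61-fold (quartiles 2.07 and 13.9), and by over 10-fold in 31.7%. Among the 261 such genes of the top 10%, which were placed by their brightest probe set, the median was 15.9-fold. The second brightest was also at that level for 50 of the 261, and under the median gene for 85. Genes at the top show both cases. The probe sets of Gapdhs had means of 10746 and 3928, and the brightest pair of Akap1 had 6655 and 6401, and its remaining probe set had 86.2. Tnp1 had 7837 and 38.9, Rps24 9582 and 44.8, and Odf2 5584, 207 and 3.55. Phf7, at rank 9, rested on 1 probe set of 10505, and its other 4 had 1185, 1097, 1006 and 9.85. Prm2 had no bright probe set among its 2 (65.5 and 1.25), and Sycp3 had only 1 (0.950). What part probe design has in their low placing was not tested. For beta actin, Actb had 393 on its brightest ranked probe set, whereas the 3′ control probe set for actin read 8492 and 8893. Whether these read the same transcript was not tested.

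**Figure D4:**
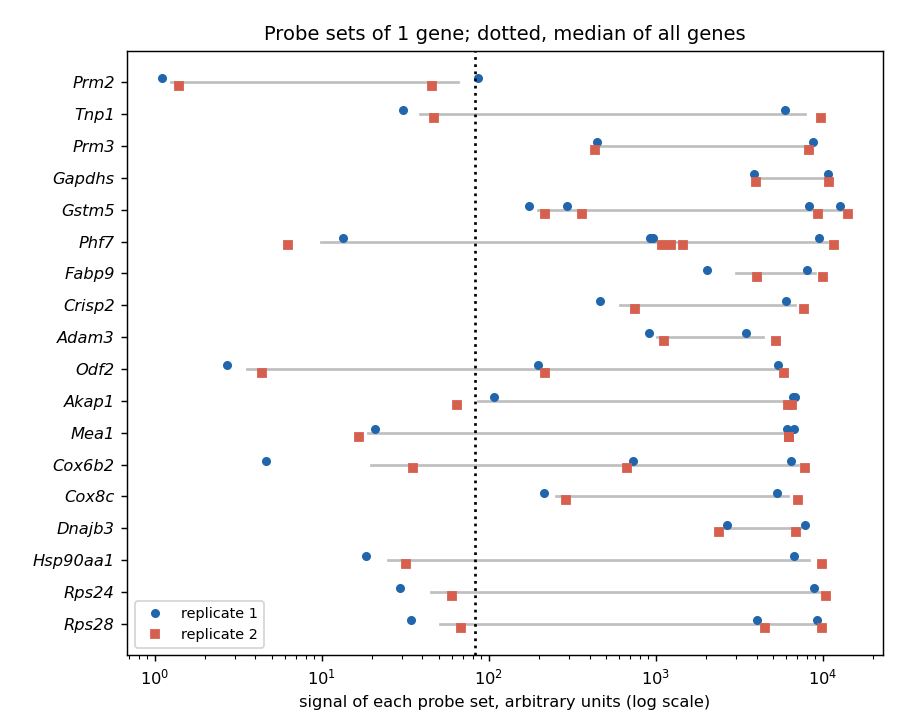
Signal of each probe set (log scale, arbitrary units) of 18 genes, circles for replicate 1 and squares for replicate 2, with lines joining the means of the dimmest and brightest. Most replicates lie closer together than the probe sets of 1 gene, as for Tnp1 (means 7837 and 38.9). Both Prm2 probe sets lie at the left, and only its brighter one on replicate 1 passes the median gene (dotted).

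Probe sets that may read several genes were common at the top. The suffix _f_at, given by the manufacturer to probe sets shared by a family of sequences, marked 7.93% of the ranked probe sets and 16 of the 100 highest, among them those of Prm1, Rpl41, Gstm5 and Dynll1. Their signals may hold related transcripts or pseudogene copies. Among the 100 brightest non-control probe sets, 76 had 1 symbol, 18 had several and 6 had none, and those 24 are outside the ranking. Named on several symbols were 99134_at, for Tcte3 and 2 predicted genes, with a mean of 12171 ± 252, and 93924_f_at for the testis tubulins Tuba3a and Tuba3b, with 11388 ± 382.

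The arrays agreed closely at the top and less so below. Across the 10833 probe sets Pearson's r of the log2 signals was 0.949 and Spearman's rho 0.953, and within the top 10% of genes they were 0.907 and 0.850. In the top 10% the arrays differed by a median of 1.22-fold, and 13 genes (1.57%) differed by over 2-fold. In the eighth decile from the top the median difference was 1.67-fold. Replicate 2 was the higher for 5087 genes and replicate 1 for 3146. The sign went with the level: in the top 10% replicate 1 was the higher for 469 genes and replicate 2 for 357, and in the lowest 10% replicate 2 was for 598 and replicate 1 for 220. The widest ratios in the top 10% were those of the phosphodiesterase Pde1a (426.5 and 1225.5), higher on replicate 2, and Abhd8 (3598 and 1506), higher on replicate 1. Cltc, the clathrin heavy chain, read 489 and 1121 and Ddx4, the germ cell helicase, 865 and 1842, both higher on replicate 2. Rbm14 (1436 and 640), Sppl2b (1140 and 518), Klhl21 (1220 and 568), Ptov1 (1680 and 783) and Mcrs1 (1315 and 628) were higher on replicate 1. Replicate 1 was scanned alone on the third of 3 scan days after a repeated hybridisation, noted for high background, and replicate 2 was 1 of 5 arrays scanned on the second day. The chip lots differed as well. Array, animal, lot and scan day therefore cannot be told apart. The median over all probe sets was 49.7 and 59.3, where the 8 arrays of the study ran from 49.7 to 73.0, and the 3′ to 5′ ratio on replicates 1 and 2 was 1.62 and 1.61 for the actin control and 1.64 and 1.09 for the Gapdh control. The arrays were thus alike on one of these controls of RNA quality and apart on the other.

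**Figure D5:**
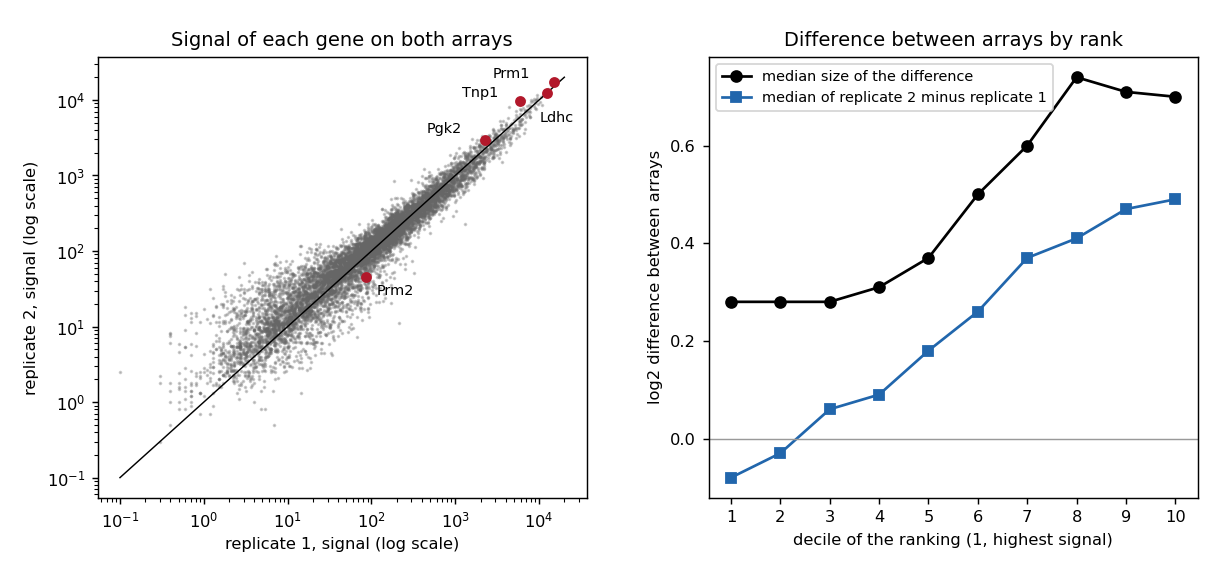
Left, signal of each of 8251 genes on replicate 2 against replicate 1 (log scales, arbitrary units) with the line of equality and the 5 marker genes in red. Right, for each decile of the ranking, the median size of the log2 difference (black) and the median of replicate 2 minus replicate 1 (blue): the first rises from 0.28 to 0.70 and the second from -0.08 to 0.49 between the first and the last decile.

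The same 6 motifs were counted in the promoters of the top 10% of genes, in windows from 250 bases before to 50 after the first listed start. A promoter was listed for 671 of the 826 genes (81.2%). TGACGTCA was in 3.28% of them (95% Wilson interval 2.18% to 4.91%), TGACGT in 14.6% and TGACG in 39.0%, each shorter motif including the longer. Over all 27025 promoters of the table, which include many genes with no ranked probe set, the shares were 1.88%, 7.64% and 21.0%. GGGCGG was in 62.9%, against 35.9% of all, CCAAT in 39.5% against 37.9%, and TATAAA in 8.64% against 14.2%, while median GC content was 60.3% against 52.7%. The second decile of the ranking had 3.88% for TGACGTCA, 14.5% for TGACGT, 37.9% for TGACG, 64.1% for GGGCGG and 6.32% for TATAAA. These shares are close to those of the top 10%, so they do not single it out. No share is given for the lowest 10% or for all ranked genes, where a promoter was listed for only 78.7% and 79.7% of genes, under the minimum of 80% set for such a count. The contrast with the whole table is therefore no contrast between high and low genes of the ranking.

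Highly placed genes were sometimes neighbours on the chromosome. Among the 100 highest genes, 4 pairs were direct neighbours in the order of protein-coding genes: Tnp2 and Prm3, Ldha and Ldhc, the metallothionein genes Mt2 (5943 and 5342) and Mt1 (4840.4 and 3986), and Rps28 and Ndufa7 (4884 and 3823). In the protamine locus Prm2 lies between Prm3 and Prm1, which keeps Prm1 out of that run. Outside it, Socs1 read 167.5 and 88.8 beside Tnp2, and Litaf 75.3 and 64.5 on the far side of Rmi2, which had no ranked probe set. In the whole top 10%, 102 of 826 genes (12.3%) lay in 49 runs of neighbours, among them Tssk1 with Tssk2, Adam3 with Adam5 and Tuba1a with Tuba1c. Of the ranked direct neighbours of a top 10% gene, 14.2% were themselves in the top 10%, where 10% of all ranked genes are. Neighbours of 1 family can share probes, and their part in this share was not tested.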

How the data were processed

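Total RNA of testis was measured on 8 Affymetrix MG_U74Av2 arrays, of which the 2 wild type arrays were used, with 15 micrograms of cRNA each per the scanner records. The authors deposited 1 intensity per probe set on a linear scale. After trimming 2% at each end the deposited values had means of 200.16 and 200.15, so both arrays were on 1 scale and were not rescaled. The software behind these values is not given in the sources used. No threshold of detection was set, and the number of arrays limits the precision. Groups came from the sample titles, and replicate numbers from the same titles.

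Probe sets with exactly 1 gene symbol in the platform annotation were kept. Symbols were brought up to date by gene ID in a RefSeq gene table (GRCm38.p6), which matched 10817 of 10833 probe sets. A gene took its brightest probe set. The mean of the deposited columns ranked the genes, and no test was made, since there is 1 group. For r and rho across probe sets, signals below 1 were set to 1 before log2. Tools were Python 3.11.15, pandas 2.3.3, numpy 2.4.6, scipy 1.17.1 and matplotlib 3.10.9, and the ranking was tested on simulated data.

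The markers and the 19 gene lists were chosen with earlier results of these data known. Named were the 40 highest genes, the 5 markers, up to 5 highest and 3 lowest members of each list, pairs of related genes, the genes targeted in the study, the widest ratios between arrays, and neighbours and other probe sets among the 100 highest. Some other list members, known for their role, were added after their values had been seen, as were the neighbours of the protamine locus. A gene annotated to a microRNA is left out of the widest ratios, since its probe set was not matched to a mature sequence. There are 15 genes that are on more than 1 list.

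Alternatives were a geometric mean, quantile normalization, each array alone, other rules for genes with several probe sets, the top 5% and a ranking of all non-control probe sets.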

Additional observations from a re-analysis of the deposited data

Results flagged for a closer look

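The brightest of all non-control probe sets, 101255_at, was outside the ranking because the annotation used here gives it no gene symbol. It read 16248 and 19732 on replicates 1 and 2, a mean of 17990 ± 2463 (SD, n = 2), against 17685 for Tnp2, the highest ranked gene. It stands here because a signal of this size lies in data that the ranking leaves out, far over the 28.7 of the highest control probe set for bacterial and yeast transcripts. Others without a symbol were 95215_f_at (9023) and 100574_f_at (8824).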

How the results depend on the processing

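The top of the ranking was recomputed with other averages and scalings and on each array, but not with another rule for genes with several probe sets. Of the 100 highest genes, 100 were found again with a geometric mean over a floor at the 20th percentile, 99 after quantile normalization and 91 on either array alone. Of the 826 genes of the top 10%, 822, 825, 773 (replicate 2 alone) and 782 (replicate 1 alone) were found again. The number of list members in the top 10% stayed within 1.5 times of the reported count for all 19 lists after quantile normalization, and for 17 when a gene was placed by the mean or by the dimmest of its probe sets. The exceptions were Sertoli genes, 0 by the mean and 0 by the dimmest in place of 1, and Leydig genes, 2 and 1 in place of 4. In the top 5%, which holds fewer genes by construction, meiotic genes had 7, Sertoli genes 0, Leydig genes 1, blood genes 1 and oxidative phosphorylation 17. Ranked on 1 array alone, Sertoli genes had 0 to 1, peritubular and vascular genes 0 to 1 and blood genes 1 to 2 members in the top 10%. Of 175 named genes, 60 moved by over 5 percentile points when all non-control probe sets were ranked, 21 by the mean of probe sets, 20 on replicate 1 alone, 11 on replicate 2 alone and 0 after quantile normalization. Promoter shares in the top 5% were 2.99% for TGACGTCA and 39.1% for TGACG. The planned summary of protein length and amino acids was not run, as no protein sequences were used here. No paired analysis was possible because there is 1 group and no test. Signals under 28.7 lie among those of foreign control transcripts, and their order has little meaning.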
